A study of Caenorhabditis elegans with 2 samples.

Results

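The X chromosome held 211 of the 1584 chromatin peaks of the tagged RCAT-1 protein in third-stage larvae of Caenorhabditis elegans, taken as every peak that the deposited reproducible list places on X, and the other 1373 peaks lay on the 5 autosomes. The data are chromatin immunoprecipitation sequencing (ChIP-seq) of strain OP218, whose genotype is given as unc-119(ed3) III; wgIs218, where wgIs218 is a transgene that carries gene R02D3.7 fused to eGFP and ed3 is a mutant allele of unc-119. The annotation used here calls R02D3.7 rcat-1. There were 2 biological replicates of 1 group, each made from whole animals of the L3 stage, so no cell type can be read from them. Their sex is recorded as males and females pooled. The labels list the antibody under the name R02D3.7, and no untagged or untreated group was analysed here, so regions that would be listed whatever the tagged protein cannot be told apart from sites of RCAT-1.

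Each peak has a summit, the base of highest enrichment, and a signal value set by the authors' peak caller, on a scale that none of the labels or files state. Signal therefore only ranks peaks within a list. The reproducible list holds peaks of both replicates pooled that passed a cutoff of the irreproducible discovery rate (IDR), which scores whether peaks keep their order from replicate to replicate. Promoter windows covered each protein-coding transcript start, with 1000 bp before it and 200 bp after it, and a coding gene is called bound where a summit lay in its window. Peaks are not replicates, and neighbouring peaks can share a region, so the exact tests below describe these lists and not the spread between worm populations.

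The X chromosome of C. elegans differs from the autosomes in dose between the sexes. Hermaphrodites carry a pair of X chromosomes and males a single one, and a dosage compensation complex, a relative of condensin, is loaded on both X chromosomes of hermaphrodites to lower their expression. The complex is brought to X at places called recruitment elements on X (rex sites), where a short GC-rich element named MEX is known to matter, and the protein SDC-2 is needed for that loading. X also has fewer genes that are active in all cells or in the germline than the autosomes, and it is rich in genes for tRNAs. No list of rex sites was used here, so no peak below is called one.

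A short sequence found at 11 of the 25 highest X peaks, and seldom in autosomal windows, is shown first at all the X peaks that hold it. The 8 letters GCGCAGGG, which are the core of the MEX element, were looked for, in either orientation, in windows of 200 bp centred on the summits, and 16 X peaks held them. They are numbered by their order of signal among the 211 X peaks. Each line gives the bases around the core on the strand that carries it, with the core in capitals. The bases were read from the RefSeq genome of build WBcel235 (ce11 coordinates). A single copy is shown and used for each peak, though at peaks 7 and 15 another copy stood near the summit.
Peak 3, between W04G3.11 and W02H3.3, chrX:11094214-11094245, minus strand: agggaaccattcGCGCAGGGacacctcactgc
Peak 4, upstream of nspc-17, chrX:14525888-14525919, minus strand: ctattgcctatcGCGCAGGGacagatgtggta
Peak 6, between F20B6.9 and hpk-1, chrX:4209254-4209285, minus strand: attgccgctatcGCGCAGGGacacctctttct
Peak 7, in an intron of mom-1, chrX:6296564-6296595, plus strand: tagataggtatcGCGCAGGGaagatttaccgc
Peak 8, between F22H10.2 and F22H10.11, chrX:16682160-16682191, minus strand: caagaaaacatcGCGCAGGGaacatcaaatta
Peak 10, in an intron of Y41G9A.17, chrX:2997111-2997142, minus strand: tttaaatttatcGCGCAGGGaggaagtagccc
Peak 15, between C34D10.1 and xol-1, chrX:8036423-8036454, plus strand: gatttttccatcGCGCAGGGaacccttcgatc
Peak 16, between gtr-1 and F25E2.2, chrX:806662-806693, plus strand: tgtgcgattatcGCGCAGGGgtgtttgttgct
Peak 19, in a coding exon of pks-1, chrX:5429578-5429609, plus strand: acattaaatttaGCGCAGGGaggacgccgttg
Peak 22, upstream of gcc-1, chrX:3159714-3159745, minus strand: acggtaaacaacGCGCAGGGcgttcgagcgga
Peak 24, upstream of ins-39, chrX:1345044-1345075, plus strand: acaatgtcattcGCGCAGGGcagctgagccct
Peak 32, between col-185 and cdk-4, chrX:13514546-13514577, plus strand: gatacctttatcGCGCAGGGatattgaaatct
Peak 35, between lgc-40 and T24D8.6, chrX:2364887-2364918, minus strand: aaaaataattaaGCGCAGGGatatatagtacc
Peak 87, nearest to dpy-23, chrX:4395603-4395634, plus strand: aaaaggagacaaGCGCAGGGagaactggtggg
Peak 94, upstream of cnnm-2 and at R04E5.9, chrX:8811093-8811124, minus strand: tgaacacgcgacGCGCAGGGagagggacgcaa
Peak 109, nearest to B0302.2, chrX:17181353-17181384, minus strand: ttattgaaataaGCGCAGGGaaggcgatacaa

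The aligned sites were also alike next to the core. In the 16 sites the same base stood in at least 60% of sites over an unbroken stretch of 11 bases, TCGCGCAGGGA. Its core was fixed by the choice of sites, and the T, C and A beside the core stood in 68.75%, 75% and 81.25%. Of the sites, 8 matched the whole stretch. The MEX core was picked after the X windows had been searched for leading words, so its counts are a description and carry no test.

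The core was found on X far more than elsewhere. It stood in 16 of 211 X windows (7.58%) and in 3 of 1373 autosomal windows (0.219%). Flanking windows, as long and shifted by 500 bp to the left and to the right, held it in 1 of 422 cases on X and in 1 of 2746 on the autosomes. Among all promoters, read from 250 bp before to 50 bp after the most upstream start, 4 of 2731 held it on X and 17 of 17242 on the autosomes. The distance between core and summit ran from 0 to 69 bp with a median of 15.5 bp, and it was at most 30 bp at 12 of the 16 peaks.

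Counting from the genome side also set X apart. A copy is counted here if it lies anywhere inside a called peak, whatever its distance from the summit. The numbers of peaks therefore differ from the 16 X and 3 autosomal summit windows with the core. X carries 81 copies of the core (4.57 per Mb), of which 23 lay inside a reproducible peak (28.4%, in 18 peaks). The autosomes carry 233 copies (2.82 per Mb), of which 1 did (0.429%). Each replicate showed this by itself, since 22 X copies and 3 autosomal copies lay in the 1584 highest regions of replicate 1, and 19 X copies and 1 autosomal copy in the 1584 highest of replicate 2. In the relaxed pooled list, which includes background regions by design, 37 of the X copies (45.7%) and 33 of the autosomal copies (14.2%) fell in a region, at a median rank of 315 on X and 12669 on the autosomes. Most X copies of the core were therefore outside the reproducible peaks.

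Many of the high X peaks held the core, though the 2 highest did not. The signal of the core peaks ran from 76.6 to 706 with a median of 350, against 51.0 to 770 with a median of 73.6 for the 195 X peaks without it. They made up 11 of the 25 highest X peaks, 4 of the 75 that follow and 1 of the lowest 111. Of the 16, 12 lay outside promoter windows (75%), against 89 of the 195 others (45.6%). Among the 1584 highest regions of both replicates were 15 of the 16 core peaks and 125 of the 195 others. The replicates' summits were a median of 8 bp apart at core peaks and 29 bp apart at the others. That gap moved with signal on X in general, with medians of 11 bp over the 25 highest X peaks, 27 bp over the next 75 and 39 bp over the lowest 111. The 11 X peaks with at most 2 mismatches to the 11-base stretch but no core are counted here among the 195 without it.

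**Figure D1:**
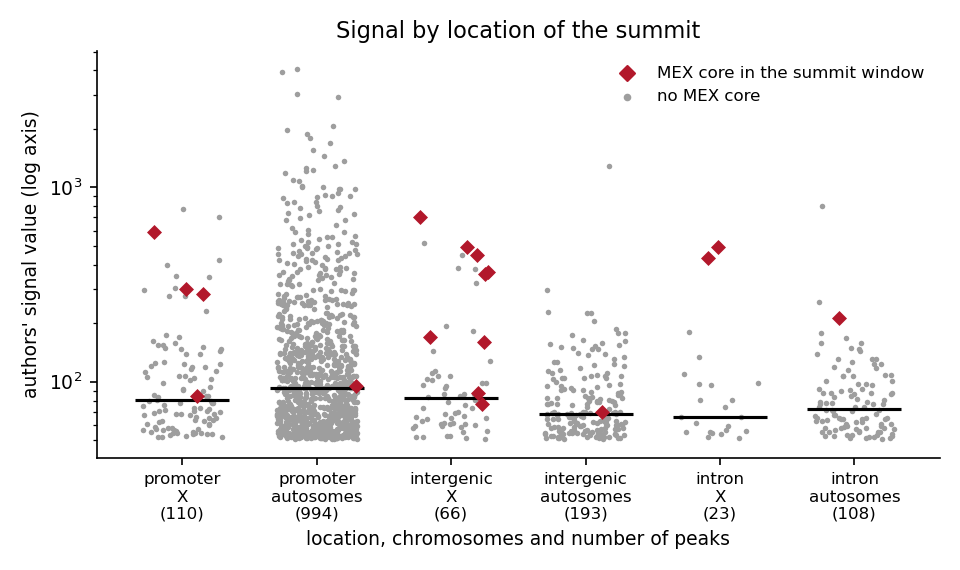
Signal value (log axis) of the reproducible peaks with the summit in a promoter window, in intergenic sequence or in an intron. X is to the left of the autosomes in each pair, with a black line at the median and red diamonds for peaks with the MEX core. Peaks in exons or untranslated regions are not drawn, among them core peak 19 in a coding exon. The core peaks on X rise to 706 in intergenic sequence, where the X median is 82.2, while the autosomes hold 3 peaks with the core, none within the X top range.

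Peak 3 was the highest of the core peaks. It spanned chrX:11093943-11094412, had a signal of 706 in the reproducible list, and had 408 in replicate 1 and 299.7 in replicate 2. Its summit was 3984 bp from the nearest coding start, that of W02H3.3. Peak 6 (chrX:4209074-4209452, signal 492) had 281 in replicate 1 and 207 in replicate 2, and its nearest start was that of F20B6.9 at 1780 bp upstream of it, with hpk-1, a homeodomain-interacting protein kinase gene, on the other side. All of these values placed the peaks within the first 100 regions of either replicate list.

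Peak 7 (chrX:6296336-6296805, signal 491) lay in an intron of mom-1, which encodes a Porcupine-type acyltransferase needed for Wnt secretion, and had 258 in replicate 1 and 232 in replicate 2. Peak 8 (chrX:16681945-16682273, signal 449.7) had 259 in replicate 1 and 195 in replicate 2. Peak 10 (chrX:2996872-2997387, signal 435) lay in an intron of Y41G9A.17 and had 233 in replicate 1 and 203 in replicate 2. At peaks 3, 7, 8 and 10 the nearest coding start was 2567 to 3984 bp away.

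Peak 15 (chrX:8036162-8036678, signal 367) lay in the interval before xol-1, the switch gene whose activity sets male fate, with its summit 4882 bp upstream of the nearest xol-1 start. It had 214 in replicate 1 and 144 in replicate 2. Peak 19 (chrX:5429411-5429680, signal 341) was the single X peak in a coding exon, in pks-1, a polyketide synthase gene, 15191 bp from the nearest coding start in use here, and it had 215 in replicate 1 and 122.9 in replicate 2. Peak 16 (chrX:806528-806843, signal 359), between gtr-1 and F25E2.2, was the one X peak with both the MEX core and the word AGACGCAG described further on. It had 196 in replicate 1 and 155 in replicate 2.

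Of the 4 core peaks in promoter windows, peak 4 (chrX:14525659-14526127, signal 589.8) lay 725 bp upstream of nspc-17, a gene of a nematode-specific peptide family, and had 346 in replicate 1 and 251 in replicate 2. Peak 22 (chrX:3159607-3159900, signal 299.7) lay 173 bp upstream of gcc-1 and had 180.1 in replicate 1 and 114 in replicate 2. Peak 24 (chrX:1344899-1345206, signal 281) lay 639 bp upstream of ins-39, which encodes an insulin-related peptide, and had 169.5 in replicate 1 and 118 in replicate 2. Peak 94 (chrX:8810937-8811320, signal 84.1) lay 13 bp downstream of a start of R04E5.9, in a window shared with cnnm-2, and had 38.02 in replicate 1 and 48.5 in replicate 2. The median distance was 239.5 bp for X promoter peaks without the core, which lies between these values.

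The X peaks lay at promoters less often than the autosomal peaks. Summits in promoter windows numbered 110 of 211 on X (52.1%) and 994 of 1373 on the autosomes (72.4%), an odds ratio of 0.416 with a 95% interval of 0.306 to 0.564 (Fisher's exact test, two-sided, adjusted exact p = 1.71e-08, Benjamini-Hochberg over 15 comparisons, as for all adjusted values below). No single autosome matched X, since the promoter share was 78.9% on I, 73.7% on II, 68.7% on III, 67.1% on IV and 73.1% on V. X has less promoter sequence, 21.8% of its length against 27.1% of the autosomes. Set against that cover, the X share was 2.39-fold the cover, and the autosomes ran from 2.43-fold on V to 3.14-fold on I, so X and V were close on that scale. Without the 16 X and 3 autosomal peaks that hold the core, the promoter shares were 54.4% on X and 72.5% on the autosomes (adjusted exact p = 1.32e-06).

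Fewer X than autosomal summits also lay close to a coding start. Within 500 bp of the nearest coding start lay 86 X summits (40.8%) and 896 autosomal summits (65.3%), an odds ratio of 0.367 (95% interval 0.269 to 0.498, adjusted exact p = 5.94e-11). The median distance to a coding start was 808 bp on X and 272 bp on the autosomes, where the single chromosomes ran from 238 to 303 bp. X summits were at or upstream of the nearest start in 154 cases (73.0%), against 1125 on the autosomes (81.9%, odds ratio 0.596, adjusted exact p = 0.00583).

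**Figure D2:**
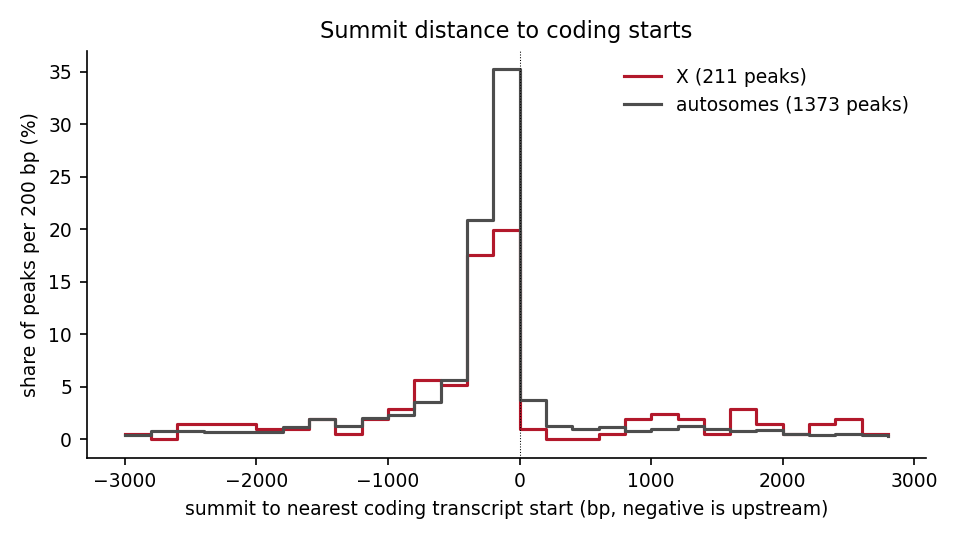
Share of peaks in bins of 200 bp (vertical axis, %) by the distance from the summit to the nearest coding transcript start (horizontal axis, negative upstream), for 211 X peaks and 1373 autosomal peaks. Both curves peak just upstream of the start, and the X curve is lower there, with 40.8% of X summits and 65.3% of autosomal summits within 500 bp.

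The X summits away from promoters were mostly intergenic. Sequence outside promoter windows and outside every annotated gene held 66 X summits (31.3%) and 193 autosomal summits (14.1%), an odds ratio of 2.78 with a 95% interval of 1.97 to 3.90 (adjusted exact p = 1.41e-08). Such sequence makes up 29.3% of X and 19.96% of the autosomes, so the X share was 1.07-fold its cover, while the autosomes ran from 0.595-fold on II to 0.847-fold on V. Among the 50 percent of peaks with higher signal the shares were 33.7% on X and 9.51% on the autosomes (odds ratio 4.82, adjusted exact p = 1.87e-08). Introns held 23 X summits (10.9%) and 108 autosomal summits (7.87%), which did not pass the threshold (odds ratio 1.43, 95% interval 0.849 to 2.33, adjusted exact p = 0.210). With promoter windows of 2000 and 500 bp it did pass, at 9.95% on X and 5.17% on the autosomes (adjusted exact p = 0.0156). The remaining X summits were 10 in noncoding exons, 1 in a coding exon and 1 in a 3' untranslated region. After the introns of mom-1 and Y41G9A.17, the highest intronic peak was in crb-1 (peak 30, signal 179.5), a gene of the Crumbs polarity protein family. The highest in a noncoding exon (peak 69, signal 103.9) lay over kin-20, a casein kinase gene, and the noncoding RNA gene F46F2.12. It was followed by peak 81 (signal 94.7) in the noncoding RNA gene R03E9.10 and peak 116 (signal 72.9) in F34H10.7, beside a tRNA-Ala gene. The peak in a 3' untranslated region was in lin-14 (peak 173, signal 56.99), with the nearest coding start, that of spp-9, 2174 bp away.

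**Figure D3:**
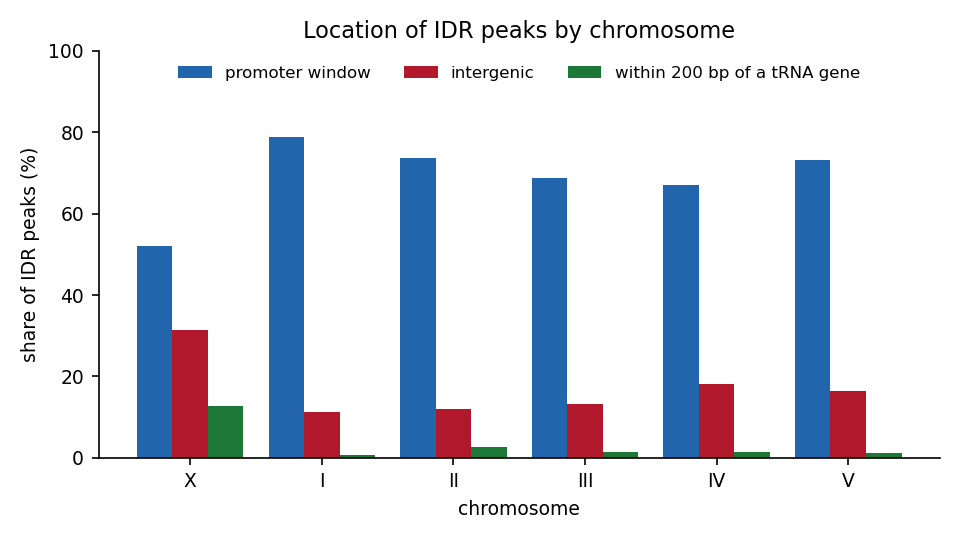
Share of the reproducible peaks of each chromosome (vertical axis, %) with the summit in a promoter window, in intergenic sequence, or within 200 bp of a tRNA gene. X, at the left, has the lowest promoter bar (52.1%), the highest intergenic bar (31.3%) and the highest tRNA bar (12.8%).

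The highest X peaks lay elsewhere than autosomal peaks of like signal, while the share of peaks above the autosomal median did not differ beyond the threshold. Signal on X ran from 51.0 to 770 with a median of 78.1, and on the autosomes from 50.7 to 4055 with a median of 82.9. Above the autosomal median lay 98 X peaks (46.4%) and 686 autosomal peaks (49.96%, odds ratio 0.869, 95% interval 0.642 to 1.17, adjusted exact p = 0.511). Promoter peaks had a median of 80.2 on X and 93.4 on the autosomes, whereas intergenic peaks had 82.2 on X and 68.6 on the autosomes. In the signal range of the 25 highest X peaks, 278 to 770, 12 of 25 X peaks lay in promoters (48%) and 10 were intergenic, while 95 of 99 autosomal peaks lay in promoters (96.0%) and 1 was intergenic. That range was read from the X peaks, so no test is given. Among the 150 highest peaks of the genome, 13 of the 23 on X were outside promoters, against 1 of 23 on I, 2 of 25 on II, 1 of 29 on III, 0 of 27 on IV and 0 of 23 on V.

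Not all high off-promoter peaks on X held the core. Peak 5 (chrX:13700639-13701045, signal 520) lay between adm-2, an ADAM-family protease gene, and K02D3.1, 6067 bp from the nearest start, and had 281 in replicate 1 and 233 in replicate 2. Its 200 bp window had no closer match to the 11-base stretch than 4 mismatches. Peak 9 (chrX:9465671-9466044, signal 449.2), between ZK899.6 and gap-2, a Ras GTPase-activating protein gene, had 224 in replicate 1 and 231 in replicate 2, with 3 mismatches at best. Peak 13 (signal 387) beside T27A8.7 had a match with 2 mismatches. Peak 14 (signal 381), between F55G7.5 and dot-1.4, a gene of the DOT1 histone methyltransferase family, had a match with 1 mismatch, as did the promoter peak 17 (signal 349), 992 bp upstream of the F-box gene fbxb-58. Peak 20 (signal 322) beside F19H6.5 had 4. Matches with up to 2 mismatches stood in 27 of 211 X windows (12.8%) and 68 of 1373 autosomal windows (4.95%). In the flanks they stood in 0.711% of X and 1.57% of autosomal windows. The stretch was drawn from the core sites on X, and those sites are counted here. Among windows without the core, such matches stood in 11 of 195 on X and 66 of 1370 on the autosomes, which was not tested.

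The highest X peaks of all were at promoters and lacked the core. Peak 1 (chrX:15849347-15849869, signal 770) lay 280 bp upstream of acl-1, an acyltransferase gene of phospholipid synthesis, with 555 in replicate 1 and 224 in replicate 2. Peak 2 (chrX:13396579-13396938, signal 706) lay 230 bp upstream of F02C12.3, with 457 in replicate 1 and 251 in replicate 2. These were the 40th and 46th of all peaks in the genome by signal, so each had many autosomal peaks above it. For comparison with the core sites, the summit with 50 bases to each side is given for 6 peaks from the plus strand of ce11, and the word AGACGCAG or its reverse complement is in capitals where present. They are the highest 2 X peaks, the highest X promoter peak with the word (peak 23), the hsp-3 peak (peak 36), and the highest X peaks at a tRNA gene (peak 40) and at a snoRNA gene (peak 150).
Peak 1 at acl-1, chrX:15849555-15849655: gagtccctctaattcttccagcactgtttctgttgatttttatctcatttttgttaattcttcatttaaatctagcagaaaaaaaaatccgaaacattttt
Peak 2 at F02C12.3, chrX:13396693-13396793: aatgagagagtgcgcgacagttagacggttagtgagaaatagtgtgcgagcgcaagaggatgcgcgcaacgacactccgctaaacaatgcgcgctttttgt
Peak 23 at aps-2, chrX:4458048-4458148: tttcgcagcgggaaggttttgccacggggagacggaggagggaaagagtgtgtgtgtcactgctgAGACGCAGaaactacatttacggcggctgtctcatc
Peak 36 at hsp-3, chrX:6092127-6092227: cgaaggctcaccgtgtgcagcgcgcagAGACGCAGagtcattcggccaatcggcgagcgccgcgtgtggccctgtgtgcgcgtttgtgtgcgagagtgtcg
Peak 40 at ZK1193.2 and R04A9.t1, chrX:410182-410282: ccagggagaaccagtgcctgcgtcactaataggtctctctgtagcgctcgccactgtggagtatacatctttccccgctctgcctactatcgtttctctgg
Peak 150 at sdha-1 and D2021.6, chrX:8546187-8546287: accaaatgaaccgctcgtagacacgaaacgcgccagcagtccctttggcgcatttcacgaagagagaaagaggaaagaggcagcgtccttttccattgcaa

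The word AGACGCAG led the autosomal windows over their flanks among all words of 8 letters, and X shared it. It stood in 30 X windows (14.2%) and 226 autosomal windows (16.5%), a difference that did not pass the threshold (odds ratio 0.841, 95% interval 0.538 to 1.28, adjusted exact p = 0.602). The flanks held it in 1 of 422 cases on X (0.237%) and in 25 of 2746 on the autosomes (0.910%), and promoters of all coding genes in 2.16% on X and 3.76% on the autosomes. It was also the first word of the X windows taken alone. Away from promoters it stood in 12 X windows (11.9%) and 95 autosomal windows (25.1%), and the first word of the off-promoter X windows was instead CGCAGGGA, which overlaps the MEX core, in 14 windows. The words AGACGCAG and GCGCAGGG share the letters CGCAG.

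Base composition differed as well. The 200 bp summit windows had a median GC content of 46.5% on X and 42% on the autosomes (41.25% to 43% on single chromosomes), while the flanks were at 34.5% on X and 37% on the autosomes. GC content above the autosomal median was found in 156 X windows (73.9%) and 676 autosomal windows (49.2%), an odds ratio of 2.92 (95% interval 2.09 to 4.13, adjusted exact p = 5.32e-11). In windows of 100 bp the difference was smaller, with 61.1% on X and 48.7% on the autosomes (odds ratio 1.65, adjusted exact p = 0.00160). The core peaks were not the GC-rich ones, with a median of 42% against 47.5% for the X peaks without the core. The repeat CACACA, on either strand, stood in 35.1% of X windows and 20.7% of autosomal windows, with flanks at 9.95% on X and 7.87% on the autosomes. GAGAGA stood in 45.5% of X and 38.2% of autosomal windows, and the GATA-type word TGATAA in 9.0% of X and 11.9% of autosomal windows, less than in the flanks (21.1% on X and 17.3% on the autosomes).

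X genes were bound less often than autosomal genes. A summit lay in the promoter window of 119 of 2731 coding genes on X (4.36%) and of 1420 of 17242 on the autosomes (8.24%), an odds ratio of 0.508 with a 95% interval of 0.416 to 0.615 (adjusted exact p = 9.97e-13). The gap was narrower in the 1584 highest regions of replicate 2, taken without replicate 1, at 5.27% of X genes and 7.17% of autosomal genes (odds ratio 0.720, adjusted exact p = 0.000378). Chromosome V was near X with 4.95%, and the others had 7.50% on IV, 7.80% on II, 11.9% on III and 11.95% on I. The number of peaks per 1000 coding genes was 77.3 on X and 79.6 on the autosomes together, where single chromosomes ran from 47.7 on V to 114 on III. Per Mb it was 11.9 on X and 16.6 on the autosomes, from 11.4 on V to 21.8 on III.

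Shared promoters were rare on X. Of the X promoter summits, 12 of 110 lay in the windows of more than 1 gene (10.9%), against 439 of 994 on the autosomes (44.2%, odds ratio 0.155, 95% interval 0.0764 to 0.288, adjusted exact p = 3.28e-12). Single autosomes ran from 37.1% on II to 49.03% on III. Promoter windows overlap less on X to begin with, since 4.50% of the promoter bases of X and 11.3% of those of the autosomes belong to more than 1 gene.

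Of the 25 highest X peaks, the promoter peaks not yet described were at genes of several kinds. Peak 23 (chrX:4457964-4458230, signal 297.5) lay 174 bp upstream of aps-2, the small subunit of the AP-2 clathrin adaptor, with 189 in replicate 1 and 105 in replicate 2. Peak 21 (chrX:5841161-5841434, signal 303) lay 280 bp upstream of puf-9, a Pumilio-family RNA-binding protein gene, with 131 in replicate 1 and 169 in replicate 2. Peaks 11 (signal 424) and 12 (signal 398) were at tag-123 and at nucb-1, a nucleobindin gene, and peaks 18 (signal 347) and 25 (signal 278) at serp-1.1 and at chup-1, a gene of the cholesterol uptake protein family. Their summits were 163 to 297 bp upstream of the start. At puf-9 replicate 2 had the higher value, and at aps-2 replicate 1 did.

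Genes of general cell function are few on X, and several of them were bound. One of 2 ribosomal protein genes had a summit, rpl-11.2 (signal 230.2, with 107 in replicate 1 and 121 in replicate 2), against 64 of 81 on the autosomes. Translation factors had 2 of 3 on X, eef-1A.2 (signal 151), an elongation factor 1 alpha gene, and ife-2 (74.6), an eIF4E gene, against 19 of 40 on the autosomes. Chaperones had 2 of 5 on X, hsp-3 (158), an endoplasmic reticulum Hsp70 gene, and dnj-14 (79.7), whose peak is shared with glit-1, against 26 of 65 on the autosomes. Oxidative phosphorylation had 3 of 6 on X, the ATP synthase genes asg-2 (155) and asb-2 (139) and the succinate dehydrogenase gene sdha-1 (62.97), against 26 of 60 on the autosomes. The vacuolar ATPase had 2 of 3 on X, vha-12 (124) and vha-15 (80.6), against 4 of 17 on the autosomes. Over all coding genes, 4.36% were bound on X and 8.24% on the autosomes. The lists hold few X genes, and none of these counts was tested.

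Trafficking genes had 5 of 23 bound on X, aps-2 with the exocyst genes sec-15 (147) and sec-3 (104.4), sec-16A.2 (106) and rab-14 (79.5), against 33 of 109 on the autosomes. The sec-15 peak is shared with C28G1.2 and the rab-14 peak with nipi-3. Other general lists had no bound X member, namely 0 of 24 chromatin and transcription genes on X against 31 of 126 on the autosomes, 0 of 8 proteasome and ubiquitin genes against 26 of 90, and 0 of 1 splicing factor against 21 of 47. Histone genes had 1 of 5 on X, the linker histone gene his-24 (56.6), against 5 of 76. Cell cycle genes had 1 of 2 on X, cdk-11.2 (55.4), against 14 of 57. These counts, too, stand beside 4.36% of all X genes and 8.24% of all autosomal genes, and none was tested.

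For lists of genes used in particular tissues, the counts are read against 4.36% of all X genes and 8.24% of all autosomal genes, and those on X are too few to set the lists apart from that share. Neurotransmitter receptors and channels had 1 of 82 on X and 1 of 166 on the autosomes, and the X member, the glutamate receptor gene glr-6, shares its peak with asg-2. Neuropeptides and insulins had 1 of 37 on X, ins-39, and 1 of 107 on the autosomes. Homeobox genes had 0 of 26 on X and 2 of 62 on the autosomes, cuticle collagens 0 of 30 and 6 of 145, muscle genes 0 of 14 and 2 of 35, and chemoreceptors 0 of 34 and 8 of 1331. Nuclear hormone receptors had 3 of 27 on X, nhr-48 (78.1), nhr-1 (76.1) and nhr-255 (63.1), and 6 of 247 on the autosomes. The list labelled germline had 1 of 3 on X, puf-9, and 8.94% of its autosomal genes. That label does not show in which tissue puf-9 is used.

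Among regulators, lin-14, the heterochronic transcription factor gene of early larval stages, carried 3 X peaks, one 142 bp upstream of a start (signal 65.4), one in the 3' untranslated region (56.99) and one in an intron with the fifth lowest signal on X (51.7). By promoter windows lin-14 was the one bound gene of 3 X heterochronic genes, against 2 of 8 on the autosomes. The windows of daf-12 and hbl-1 held no summit, though peak 182 (signal 55.8) lay in an intron of daf-12. In the list of sex determination and dosage compensation, sdc-2 was bound on X (peak 108, chrX:11522112-11522495, signal 77.3, 403 bp upstream of the start), with 33.8 in replicate 1 and 34.6 in replicate 2, while ceh-39, fox-1, sdc-1, sex-1 and xol-1 were not. The autosomes had 2 of 16 in that list. A list under the loose label of developmental regulators had 4 of 45 bound on X, against 7 of 50 on the autosomes. The X members were dpy-23 (126), unc-115 (111.9), lin-14 and pqn-39 (54.6). The label does not state what each of these genes does, and lin-14 also stands in the heterochronic list. Among all coding genes 4.36% were bound on X and 8.24% on the autosomes. The X counts in these lists are too few to set the lists apart from that share.

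Genes for tRNAs formed a separate group of X peaks. Within 200 bp of a tRNA gene lay 27 X summits (12.8%) and 20 autosomal summits (1.46%), an odds ratio of 9.90 with a 95% interval of 5.23 to 19.03 (adjusted exact p = 3.26e-12), and each autosome had 7 such peaks or fewer. X carries 276 of the 612 annotated tRNA genes. Of these, 31 had a summit within 200 bp (11.2%), against 23 of 336 on the autosomes (6.85%), a difference between genes that was not tested. The summits stood just before the gene, since 24 of the 31 X genes had the summit upstream of their start, 21 of them within 75 bp, and 5 had it inside, with a median position 34 bp upstream. The X genes were of 15 amino acid types by the RefSeq annotation, led by tRNA-Ala with 4 of 13 X genes.

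The tRNA peaks were low. Among the 50 percent of peaks with higher signal they made up 7.14% on X and 0.432% on the autosomes (odds ratio 17.6, adjusted exact p = 6.84e-05). On X their signal ran from 51.1 to 149 with a median of 65.9, and on the autosomes from 51.5 to 132 with a median of 61.3. None was among the 25 highest X peaks and none held the MEX core, while 2 of 27 on X and 2 of 20 on the autosomes held AGACGCAG. The highest X one was peak 40 (chrX:410179-410274, signal 149) at R04A9.t1, a tRNA-Gln gene, which also lay in the promoter window of ZK1193.2 and had 104.003 in replicate 1 and 46.4 in replicate 2. Peak 60 (signal 111) stood between the tRNA-Ser genes C53C7.t1 and C53C7.t2, which point away from each other, 59 bp upstream of one and 72 bp upstream of the other. Peak 79 (signal 96.4) stood in the same way between M02F4.t1 (tRNA-Gly) and M02F4.t2 (tRNA-Glu). Without peaks at tRNA, snRNA or snoRNA genes the promoter shares were 56.3% on X and 74.3% on the autosomes (adjusted exact p = 2.26e-06).

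Other small RNA genes went the other way. Within 200 bp of an snRNA or snoRNA gene lay 1 X summit (0.474%), the one at D2021.6 and sdha-1, and 83 autosomal summits (6.05%, odds ratio 0.0741, 95% interval 0.00184 to 0.429, adjusted exact p = 0.000190). X has fewer of these genes. One of its 33 snoRNA genes had a summit against 58 of 313 on the autosomes, and 0 of its 3 snRNA genes against 17 of 126. None of the 74 X microRNA genes had a summit within 200 bp, against 4 of 187 on the autosomes.

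X peaks were spread along the whole chromosome, more densely towards the right end. The left, middle and right parts of equal length held 53, 73 and 85 summits, or 6.08, 7.48 and 9.62 per 100 coding genes. The middle part held 34.6% of X summits and 35.7% of X coding genes (odds ratio 0.951, 95% interval 0.698 to 1.29, adjusted exact p = 0.816). The promoter share was 58.5% in the left part, 57.5% in the middle and 43.5% in the right, and in the last 5% of X 1 of 11 summits was in a promoter. Bins of 5% of the length ran from 4.20 to 12.9 peaks per 100 genes, and the bins from 75% to 80% and from 85% to 95% had 12 or more. The core peaks numbered 8 in the left part, 4 in the middle and 4 in the right. The trend to the right was seen after counting and was not tested.

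**Figure D4:**
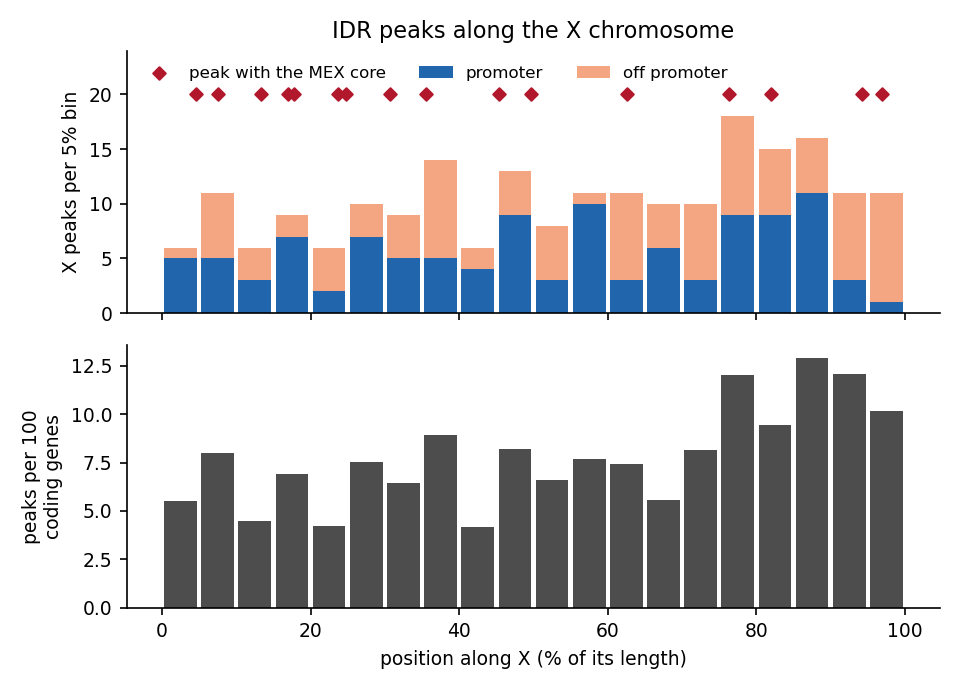
Number of X peaks in each bin of 5% of the chromosome (upper panel, promoter summits in blue below off-promoter summits in orange, with red diamonds at the positions of the 16 peaks with the MEX core at an arbitrary height) and peaks per 100 coding genes in the same bins (lower panel), by position along X in % of its length. The density per coding gene is highest in the bins from 75% to 80% and from 85% to 95%, and the core peaks are scattered from 4.55% to 96.97%.

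Neighbouring X summits had a median gap of 42 kb, and 21 gaps were 5 kb or shorter. The closest pair was at ftt-2, a 14-3-3 protein gene, where peaks 31 (signal 173) and 54 (signal 120) had summits 199 bp apart in overlapping regions, so they are not separate sites in the replicate lists. The next closest pair, 697 bp apart, was at nipi-3 and rab-14, where the higher was peak 51. The most isolated summits were those at ajm-1 (peak 176, signal 56.8), a cell junction gene, at 255614 bp from the next, and at eef-1A.2 (peak 39) at 213160 bp. The summits of the core peaks stood apart, with a smallest gap of 162651 bp and a largest of 2.42 Mb.

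Recovery in the replicates did not differ between X and autosomal peaks beyond the threshold. Of the 211 X peaks, 209 overlapped a region of the replicate 1 list and 211 one of replicate 2, and 140 (66.4%) were among the 1584 highest regions of both, against 897 of 1373 autosomal peaks (65.3%, odds ratio 1.05, 95% interval 0.763 to 1.44, adjusted exact p = 0.816). Across the 209 X peaks found in both, Spearman's rho of the signal was 0.552, and across autosomal peaks it was 0.647, values over peaks chosen on pooled signal and given as a description. The replicates' summits were a median of 28 bp apart on X and 22 bp on the autosomes. X was more prominent in replicate 2, where it had 263 of the 1584 highest regions (16.6%), than in replicate 1, where it had 196 (12.4%). Both replicates share 1 control alignment, so their lists are not fully independent.

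**Figure D5:**
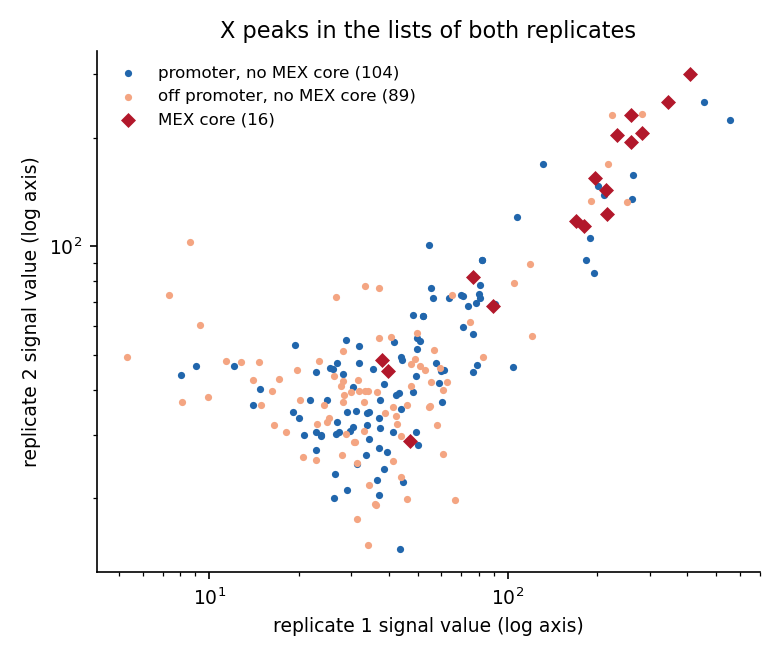
Signal value of the 209 X peaks found in both replicate lists, replicate 1 on the horizontal and replicate 2 on the vertical axis (both log axes), split into promoter peaks and off-promoter peaks without the MEX core and the 16 peaks with it. Most core peaks lie along the band of high values in both replicates, while peaks 87, 94 and 109 lie among the low peaks. The low peaks form a broad cloud with both off-promoter and promoter peaks at its left edge.

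The largest disagreements were mostly among X peaks with a signal below the X median of 78.1. Peak 99 was above it. So was peak 61 (signal 110), in an intron of elt-3, at rank 11364 in replicate 1 and 181 in replicate 2. The intronic peak 178 nearest to F49E2.5 (signal 56.5) stood at rank 26234 in replicate 1 and 612 in replicate 2. Peak 99 near sdz-19 (signal 80.9) stood at rank 15499 in replicate 1 and 314 in replicate 2. Peak 170 at T24D3.2 (signal 57.8) stood at rank 12977 in replicate 1 and 763 in replicate 2. In the other direction, peak 162 at T14G11.1 (signal 59.8) stood at rank 812 in replicate 1 and 6237 in replicate 2. Peak 199 near sid-3 (signal 52.6) stood at rank 1123 in replicate 1 and 5876 in replicate 2, and peak 187 near F59C12.4 (signal 55.1) at 1224 in replicate 1 and 4088 in replicate 2. Peaks 192 at dpyd-1 and 201 at cdd-1 had no region in the replicate 1 list, with ranks of 851 and 796 in replicate 2. The lowest X peaks, with signals from 51.0 to 51.7, were at sur-5, got-2.2, ZC449.t1, H18N23.2 and the lin-14 intron.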

How the data were processed

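ChIP-seq peak lists from 2 replicates were used on ce11: a relaxed list for each, a relaxed list of the pool and the IDR-thresholded list of the pool. The ce10 IDR list served only to count its X peaks. Per the deposited list of files, each derives from replicate alignments and 1 control alignment. The signal value and the summit offset were deposited by the authors; neither labels nor files state the aligner, caller, IDR threshold or read depth, and single peaks therefore carry no counting error. Genes came from Ensembl release 115 and sequence and tRNA types from RefSeq (607 of 612 tRNA genes matched by position). Locations, distances, GC content and motifs were computed with Python 3.11.15, pandas 2.3.3 and numpy 2.4.6. X was compared with the 5 autosomes by two-sided Fisher's exact tests (scipy 1.17.1) with conditional 95% intervals, adjusted over 15 comparisons and called below 0.05. Measured values were tested as shares above the autosomal median. The code was tested on simulated data. Named peaks follow a rule: the 25 highest X peaks, the 3 highest in each location, the 5 lowest, up to 4 bound members of each of 24 gene lists, the largest replicate differences and the closest and most isolated summits. Others, such as those with the MEX core and at tRNA genes, were chosen after their values were seen. Members and lists were chosen with earlier results of these data known. Alternatives covered promoter windows, replicates, close summits and motif windows. No comparison was rerun on ce10, where 211 of 1574 peaks lay on X.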

Additional observations from a re-analysis of the deposited data

How the results depend on the processing

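Across all alternatives run, including those added after seeing the data (leaving out peaks with the MEX core), 79 values kept their direction and their side of the threshold. The share of windows with AGACGCAG, which did not differ beyond the threshold, changed direction 3 times without passing it: X minus autosomes was 0.182 percentage points without replicate 2, 3.39 among the 50 percent of peaks with higher signal, 3.18 in promoter peaks only and -3.28 without replicate 1. The intron share passed the threshold with promoter windows of 2000 and 500 bp, at 4.78 points; the cause was not tested. The odds ratio of the multi-gene promoter share was 0.237 with those windows. Depth is unknown, so no peak has a counting error, and absence from the list does not show absence of binding. No paired analysis was possible because there is 1 group.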
